A study of Homo sapiens with 6 samples.

Results

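The genes described here encode the chaperones, folding enzymes and quality control factors of the endoplasmic reticulum (ER), together with the sensors and the transcription factor of the unfolded protein response (UPR). They were chosen by gene symbol, as a list of 32 genes known to act in ER folding or in this response. The list was chosen with earlier results of these data known and was not tested as a set. All 32 were found among the 60480 genes of the deposited table, each once, and all 32 passed the filter on low counts that left 19778 genes to test. The libraries come from OE-19 cells, an established line of adenocarcinoma of the esophagogastric junction (AEG), with 3 libraries from control cells (shControl, in columns headed Puro) and 3 from cells in which *IGF2BP3* was knocked down with shRNA (IGF2BP3 KD). *IGF2BP3* encodes an RNA-binding protein known as a reader of N6-methyladenosine in mRNA. The labels give neither the hairpin sequence, nor whether the knockdown libraries share a hairpin, nor whether replicates were separate cultures, so the spread between replicates may be technical.

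Proteins that enter the secretory pathway are threaded into the ER through the SEC61 channel and are folded there by chaperones such as BiP (*HSPA5*) and GRP94 (*HSP90B1*), by the lectin chaperones calnexin and calreticulin, and by protein disulfide isomerases. When unfolded proteins build up, the membrane sensors IRE1 (*ERN1*), ATF6 and PERK (*EIF2AK3*) are activated. IRE1 splices the *XBP1* mRNA into the form that encodes the active factor, ATF6 is cut in the Golgi to release its transcription factor part, and PERK phosphorylates eIF2alpha, which lowers translation in general and raises that of ATF4. Proteins that fail to fold are returned to the cytosol for degradation (ER-associated degradation, ERAD). Columnar and gland-forming epithelia of the gastrointestinal tract secrete mucins and enzymes and therefore carry a high folding load.

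Total counts were 53424071 to 69989087 per library, and the TMM factors that scale them lay between 0.992 and 1.01. *IGF2BP3* itself (ENSG00000136231) was counted 7416, 7363 and 6532 times in the control libraries and 777, 792 and 794 times after knockdown. Of 10 markers of columnar adenocarcinoma epithelium, 9 had a mean of at least 100 CPM (TMM-scaled counts relative to the total of the library) in control cells, and *KRT7* had 3.51 CPM. Of 18 markers of fibroblasts, leukocytes, endothelium and squamous epithelium, 10 were too low to test and *COL1A2*, *LUM* and *CD3E* had 0 counts in every library. Their summed level was 2490 to 2723 CPM in control and 2520 to 2591 CPM in IGF2BP3 KD libraries, nearly all of it from *LYZ*, which gastric epithelium also expresses. Without *LYZ* it was 23.9 to 26.3 CPM in control and 32.3 to 36.9 CPM in IGF2BP3 KD libraries, of which *COL1A1* made up most, and without both genes it was 2.74 to 3.89 and 3.06 to 3.57 CPM. *COL1A1* averaged 21.7 CPM in control and 30.8 CPM in IGF2BP3 KD libraries (log2 fold change 0.50, edgeR adjusted p = 7.8e-04). The part of the 18 markers in the results was not tested. In such bulk libraries, fewer cells that express a gene and less of its RNA per cell cannot be told apart.

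Many promoters of ER chaperone genes hold the ER stress element (ERSE), in which a CCAAT box bound by NF-Y is followed, after a fixed spacer, by CCACG, where ATF6 binds. The RefSeq promoter table (GRCh38.p14, 250 bases before to 50 bases after each start) matched 29 of the 32 genes by symbol, with 37 starts. It did not match *PDIA3*, *DERL1* and *DERL3*. The words searched on both strands were the full ERSE with its spacer, the shorter ERSE-II, in which a single base of any kind separates the reversed box from the same CCACG end, and the UPR element (TGACGTGG), which XBP1 can bind. The ERSE word was present in 10 of the 37 promoters (27.0%), belonging to 8 of the 29 genes (27.6%). Among promoters of tested genes it was in 18 of 17079 (0.105%), belonging to 16 of 11957 genes (0.134%). Overlapping windows of *CANX* hold the same site, which the count of promoters therefore takes in more than once. The parts of the word were common, since the end alone was in 46.8% and the box alone in 34.5% of the promoters of tested genes. The word was first described in promoters of genes such as *HSPA5*, so its frequency among them is not independent of how it was defined. Of the 29 genes, 12 hold any of the 3 words. Elements of some of these 12 genes, called or not, are shown as examples. The fixed letters of each element are in capitals, and each is read on the strand that carries these letters.
HSPA5 ERSE: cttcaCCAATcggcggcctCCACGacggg
HSP90B1 ERSE: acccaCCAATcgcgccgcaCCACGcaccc
CALR ERSE: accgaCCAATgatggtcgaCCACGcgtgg
CANX ERSE: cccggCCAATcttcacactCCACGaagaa
PDIA6 ERSE: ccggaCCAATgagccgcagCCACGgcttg
XBP1 ERSE: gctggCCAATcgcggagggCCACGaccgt
HYOU1 ERSE-II: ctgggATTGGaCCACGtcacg
HERPUD1 ERSE-II: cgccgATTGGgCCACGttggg
In GRCh38.p14 the ERSE of *HSPA5* covers chr9:125241391-125241409 and begins 66 bases before the RefSeq start, and that of *XBP1* covers chr22:28800603-28800621 and begins 52 bases before it. *HYOU1* holds ERSE-II 2 times, and its copy at chr11:119057380-119057390 overlaps a UPR element on the other strand.

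In IGF2BP3 KD cells, 8 of the 32 genes fell, 6 rose and 18 were not called, with calls made at 0.05 on p-values of the edgeR quasi-likelihood test, Benjamini-Hochberg adjusted over all tested genes. Of all tested genes, 10.6% were called lower, 9.87% higher and 20.4% in either direction. Most of the 32 are well expressed, and among coding genes averaging 10 CPM or more, as 30 of them do, 19.7% were lower, 16.6% higher and 36.3% either. The share called among the 32 genes, 43.8%, with 25.0% lower and 18.8% higher, lies nearer to that of well expressed coding genes than to that of all genes. The median log2 fold change of the 32 genes was -0.003, against 0.01 over all tested genes and -0.013 over well expressed coding genes. Of the 32 values, 16 lay below 0 and 16 above. The changes were small, from -0.35 for *DNAJB9* to 0.46 for *SEL1L*. Their summed level was 6459 to 6479 CPM in control and 6490 to 6532 CPM in IGF2BP3 KD libraries.

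**Figure D1:**
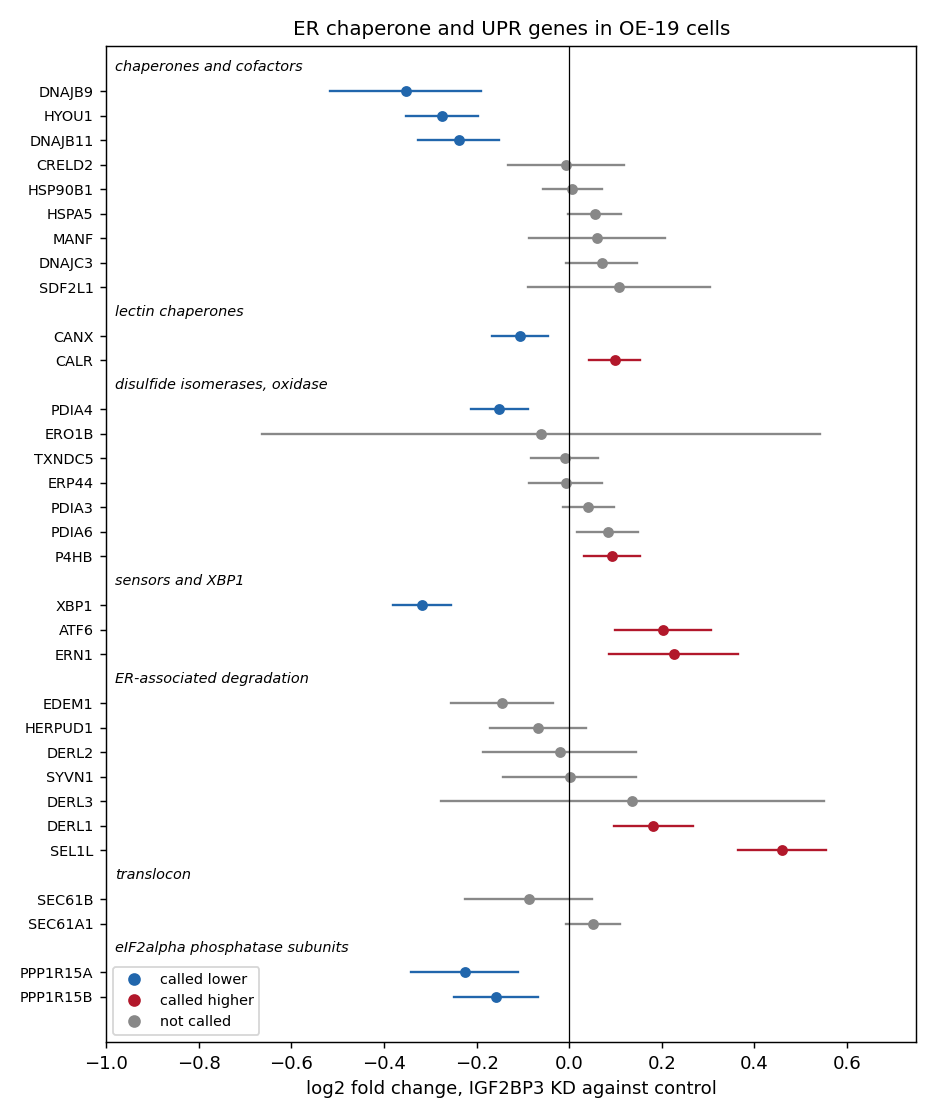
Log2 fold change of each of the 32 genes, IGF2BP3 KD against control (x axis), grouped by role (y axis), with 95% intervals from the edgeR fit as bars and colours for genes called lower, called higher or not called. Changes run both ways within most roles, from -0.35 for DNAJB9 to 0.46 for SEL1L.

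The UPR factor itself was among the genes that fell. *XBP1* (ENSG00000100219, chromosome 22, 28794555 to 28800597, minus strand of hg38) had 299, 313 and 312 CPM in control replicates 1, 2 and 3, and 249, 246 and 246 CPM in the IGF2BP3 KD replicates. Its groups were well apart, each IGF2BP3 KD library lying below the lowest control library. It changed by -0.32 on the log2 scale (standard error 0.03, edgeR adjusted p = 1.7e-05), and the exons of *XBP1* overlap no other gene. The counts add up reads over the whole gene, so they do not separate the spliced from the unspliced *XBP1* mRNA.

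Both sensors on the list rose. *ERN1*, which encodes the kinase and nuclease IRE1, had 26.3, 27.0 and 28.3 CPM in control and 33.8, 31.3 and 30.4 CPM in IGF2BP3 KD replicates, a log2 fold change of 0.23 (standard error 0.06, edgeR adjusted p = 0.026). *ATF6*, the membrane-bound factor, had 94.3, 87.9 and 84.6 CPM in control and 100.4, 101 and 106 CPM in IGF2BP3 KD replicates, a log2 fold change of 0.20 (standard error 0.05, edgeR adjusted p = 0.011). For both genes every IGF2BP3 KD library was above every control library. The call of *ERN1* was lost without control replicate 1 or 2 and without IGF2BP3 KD replicate 1 or 2 (log2 fold change 0.18 to 0.24, edgeR adjusted p = 0.062 to 0.12 in these fits), and with no filter on low counts (adjusted p = 0.058). That of *ATF6* was lost without control replicate 3 (0.16, edgeR adjusted p = 0.058) and without IGF2BP3 KD replicate 3 (0.17, edgeR adjusted p = 0.055).

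Among the 9 chaperones of the HSP70, HSP90 and J-domain families and their small cofactors, 3 fell and 0 rose. *DNAJB9*, a J-domain protein (ERdj4) that works with BiP and in ERAD, fell most of all 32 genes. It had 18.3, 17.4 and 17.5 CPM in control and 13.1, 14.2 and 14.4 CPM in IGF2BP3 KD replicates (log2 fold change -0.35, standard error 0.07, edgeR adjusted p = 0.0058). *HYOU1* (GRP170), which exchanges the nucleotide on BiP, had 236, 253 and 257 CPM in control and 203, 207 and 206 CPM in IGF2BP3 KD replicates (log2 fold change -0.27, standard error 0.04, edgeR adjusted p = 2.2e-04). In *DNAJB11*, the J-domain protein ERdj3, values went from 88.1, 86.5 and 83.9 CPM to 72.1, 73.3 and 73.7 CPM (log2 fold change -0.24, standard error 0.04, edgeR adjusted p = 0.0014). In none of the 3 genes did the groups overlap, and 14.2% of the exonic bases of *DNAJB11* and 9.77% of those of *HYOU1* are shared with other genes.

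BiP and GRP94 were among the 6 genes of this role that were not called. *HSPA5*, which encodes BiP, the main HSP70 of the ER and the gene used most often to read the UPR, had 568, 589.6 and 585 CPM in control and 615, 590.4 and 604 CPM in IGF2BP3 KD replicates. The lowest IGF2BP3 KD library and the highest control library were almost equal. Its log2 fold change was 0.05 (95% interval -0.002 to 0.11, edgeR adjusted p = 0.18). The upper end of this interval is a rise of 8.02%, but the interval reflects only the spread between these libraries, which may be technical. *HSP90B1*, the HSP90 of the ER, had 435, 412 and 409.5 CPM in control and 419, 422 and 421 CPM in IGF2BP3 KD replicates, so its control libraries enclose the others. Its log2 fold change was 0.007 (95% interval -0.06 to 0.07). The others that were not called lay between -0.007 and 0.11, namely *CRELD2*, *MANF*, *DNAJC3* and *SDF2L1*. The widest interval among them was that of *SDF2L1* (-0.09 to 0.30), whose control replicate 1, at 21.5 CPM, was low against 27.5 and 26.6 CPM in the others.

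**Figure D2:**
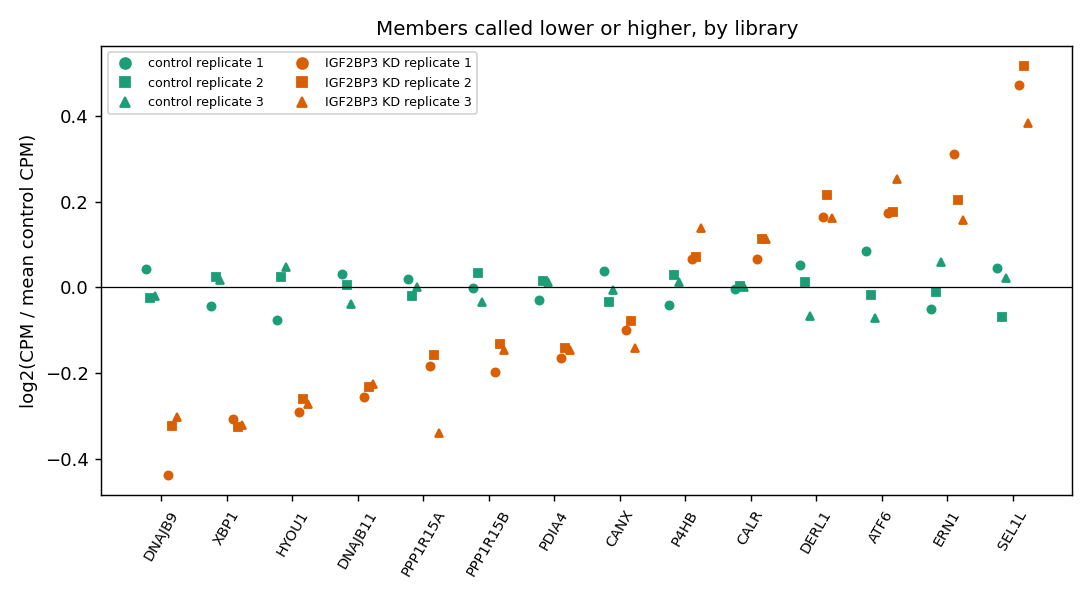
CPM of each library divided by the mean of the control libraries, on a log2 scale (y axis), for the 14 genes called lower or higher (x axis, ordered by change). Points are libraries, and in all 14 genes the 3 IGF2BP3 KD libraries lie on one side of the 3 control libraries.

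The lectin chaperones, which hold glycoproteins until their sugars are trimmed, changed in opposite directions. *CANX*, the membrane-bound calnexin, had 634, 603 and 614 CPM in control and 576, 584 and 559 CPM in IGF2BP3 KD replicates (log2 fold change -0.11, standard error 0.03, edgeR adjusted p = 0.017). *CALR*, its soluble relative calreticulin, had 423, 425 and 424 CPM in control and 443, 458 and 458 CPM in IGF2BP3 KD replicates (log2 fold change 0.10, standard error 0.02, edgeR adjusted p = 0.016). The groups did not overlap in either gene, and both promoters hold the ERSE shown above. Both calls were near the threshold. *CANX* lost its call without control replicate 3 (-0.11, edgeR adjusted p = 0.052), IGF2BP3 KD replicate 1 (-0.11, edgeR adjusted p = 0.051) or IGF2BP3 KD replicate 3 (-0.09, edgeR adjusted p = 0.072). *CALR* lost its call without control replicate 3, IGF2BP3 KD replicate 2 or IGF2BP3 KD replicate 3 (0.09 in each, edgeR adjusted p = 0.065 to 0.077), and with no filter on low counts (adjusted p = 0.092).

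Of 7 enzymes of disulfide formation, 1 fell and 1 rose. *PDIA4* (ERp72), a disulfide isomerase found in complexes with BiP and GRP94, had 233, 240.3 and 239.8 CPM in control and 212, 215 and 215 CPM in IGF2BP3 KD replicates. All IGF2BP3 KD libraries were lower, and the log2 fold change was -0.15 (standard error 0.03, edgeR adjusted p = 0.0026). *P4HB*, the founding protein disulfide isomerase, had 889.7, 934 and 924 CPM in control and 959, 962 and 1008 CPM in IGF2BP3 KD replicates, a log2 fold change of 0.09 (standard error 0.03, edgeR adjusted p = 0.034). Its call held in only 1 of the 6 fits that each left out a library, the fit without control replicate 2, and its adjusted p was 0.061 to 0.16 in the others, and 0.17 with no filter on low counts. *PDIA6* was not called at 0.08 (edgeR adjusted p = 0.076) although its groups did not overlap, and was called without control replicate 1 (0.11, edgeR adjusted p = 0.013), with DESeq2 (0.08, adjusted p = 0.045) and with coding genes alone (0.09, edgeR adjusted p = 0.047). It shares 25.2% of its exonic bases with *ATP6V1C2* on the opposite strand, a gene with a log2 fold change of -1.82, so its counts are uncertain to that extent.

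*PDIA3* (ERp57), the partner of the lectin chaperones, had a log2 fold change of 0.04 (95% interval -0.01 to 0.10). *ERP44*, which retrieves enzymes from the Golgi, and *TXNDC5* stood at -0.008 and -0.01. *TXNDC5* shares 61.1% of its exonic bases with other genes, mainly *BLOC1S5-TXNDC5* on the same strand, so reads of the 2 genes could not be told apart by position there. *ERO1B*, an oxidase best known from the pancreas, was barely expressed, at 0.964 to 1.35 CPM in control and 0.908 to 1.37 CPM in IGF2BP3 KD libraries. Its interval, -0.66 to 0.54, does not limit a change of moderate size.

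In ERAD, 2 of 7 genes rose and 0 fell. *SEL1L* (ENSG00000071537, chromosome 14, 81471547 to 81533853, minus strand of hg38), the membrane adaptor of the HRD1 ubiquitin ligase, had the largest rise of the 32 genes. It went from 129.9, 119.9 and 128 CPM in control to 175, 180.0 and 164 CPM in IGF2BP3 KD replicates, a rise of 37.5% (log2 fold change 0.46, standard error 0.04, edgeR adjusted p = 2.8e-05). The lowest IGF2BP3 KD library exceeded the highest control library, and no other gene overlaps its exons. *DERL1* (Derlin-1), part of the channel through which substrates leave the ER, had 121, 118 and 111 CPM in control and 131, 135 and 131 CPM in IGF2BP3 KD replicates (log2 fold change 0.18, standard error 0.04, edgeR adjusted p = 0.0065). *SYVN1*, which encodes the HRD1 ligase that SEL1L binds, had 25.9, 27.5 and 27.1 CPM in control and 24.9, 27.7 and 28.0 CPM in IGF2BP3 KD replicates, a log2 fold change of 0.0007 (95% interval -0.14 to 0.14) whose sign turned under other settings. Its libraries overlapped fully, in contrast to those of its adaptor, but the difference between these genes was not tested.

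The other ERAD genes were not called. *EDEM1*, a lectin that hands misfolded glycoproteins to the ligase, had 39.9, 41.1 and 40.7 CPM in control and 36.6, 36.9 and 36.6 CPM in IGF2BP3 KD replicates. All its IGF2BP3 KD libraries were lower, but its log2 fold change of -0.15 had an edgeR adjusted p = 0.065, while DESeq2 called it (adjusted p = 0.047). *HERPUD1*, a scaffold of the ligase complex, stood at -0.07 (95% interval -0.17 to 0.04), and *DERL2* at -0.02. *DERL3*, at 2.25 to 2.89 CPM over all libraries, had a log2 fold change of 0.14 (95% interval -0.28 to 0.55), and 77.0% of its exonic bases are shared with *SMARCB1* on the opposite strand.

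The translocon genes were not called. *SEC61A1*, the channel itself, had 341, 339 and 338 CPM in control and 344, 353 and 359 CPM in IGF2BP3 KD replicates, without overlap, and a log2 fold change of 0.05 (edgeR adjusted p = 0.22). *SEC61B*, a small subunit, had a log2 fold change of -0.09 (95% interval -0.22 to 0.05) and overlapping groups.

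Both genes of the eIF2alpha phosphatase fell. Their products bring protein phosphatase 1 to eIF2alpha and so end the block of translation, *PPP1R15A* (GADD34) being induced by stress and *PPP1R15B* (CReP) being expressed all the time. *PPP1R15A* had 76.3, 74.2 and 75.3 CPM in control and 66.2, 67.4 and 59.4 CPM in IGF2BP3 KD replicates (log2 fold change -0.23, standard error 0.05, edgeR adjusted p = 0.011). *PPP1R15B* had 84.2, 86.2 and 82.2 CPM in control and 73.4, 76.9 and 76.1 CPM in IGF2BP3 KD replicates (log2 fold change -0.16, standard error 0.04, edgeR adjusted p = 0.018). Neither gene had overlapping groups. The call of *PPP1R15B* was lost without control replicate 2 (-0.14, edgeR adjusted p = 0.07) and without IGF2BP3 KD replicate 1 (-0.14, edgeR adjusted p = 0.065).

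Groups did not overlap in 18 of the 32 genes, 9 of them lower and 9 higher in IGF2BP3 KD cells. Of all tested genes, 35.8% had no overlap (17.8% lower and 18% higher). This share was not computed for well expressed coding genes, so the part of expression level in the difference was not tested. The 4 of the 18 genes that were not called are *EDEM1*, *HSPA5*, *SEC61A1* and *PDIA6*. Of the 14 calls, 8 were made under each of the 12 alternatives tried, 6 lower (*DNAJB9*, *XBP1*, *HYOU1*, *DNAJB11*, *PPP1R15A* and *PDIA4*) and 2 higher (*SEL1L* and *DERL1*). Permuting 3 against 3 libraries exactly, two-sided, gives no gene a p under 0.1.

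Genes with and without the promoter words were called in both directions. Of the 12 genes with any of the 3 words, 3 fell, 1 rose and 8 were not called, with a median log2 fold change of -0.008. Of the 17 matched genes without them, 5 fell, 4 rose and 8 were not called, with the same median of -0.008. Among the 8 genes with a full ERSE, changes ran from -0.32 for *XBP1* to 0.10 for *CALR*. *DNAJB9*, *DNAJB11* and *PDIA4*, which fell, hold none of these words in the window searched, which says only that these letters are not there.

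Levels of different genes were compared per length, as RPKM over the union of exons in GENCODE v44. In control cells they ranged from 0.0754 RPKM for *ERO1B* to 151 RPKM for *CALR*, with a median of 21.7. By this measure *XBP1* was second at 102 RPKM, followed by *PDIA6* at 91.7, *HSPA5* at 88.9 and *P4HB* at 82.3 RPKM. The sensors were far lower, at 6.24 RPKM for *ATF6* and 1.42 RPKM for *ERN1*. The union takes in every annotated exon, 11132 bases for *P4HB* but 3028 for *XBP1* and 2802 for *CALR*. The order therefore depends on the annotation and may not hold per length of the mRNA expressed. Before division by length, *P4HB* had 916 CPM in control, *CALR* 424 and *XBP1* 308.

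**Figure D3:**
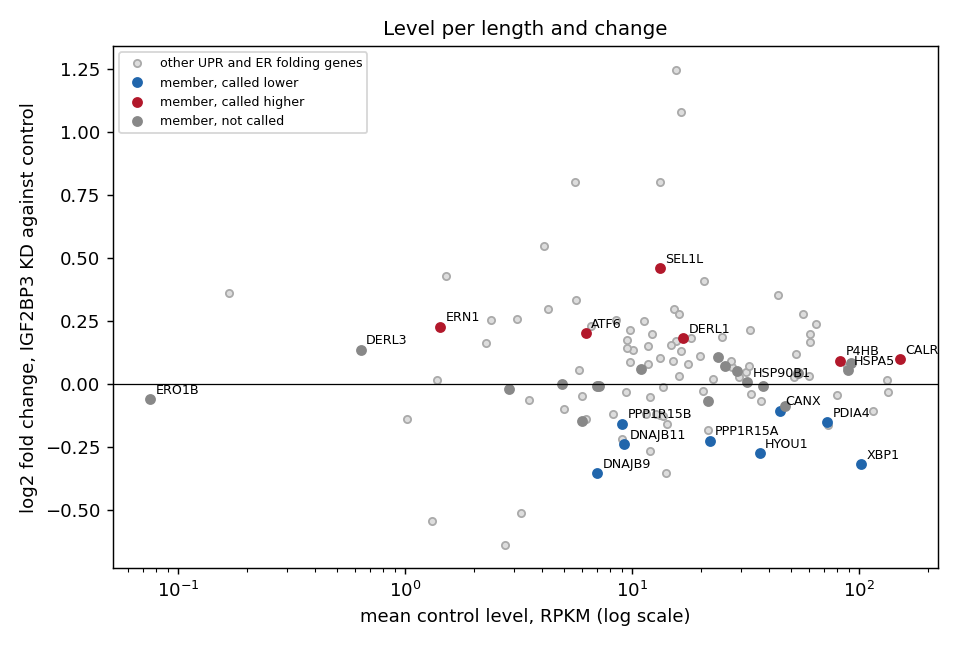
Mean control level in RPKM (x axis, log scale) against the log2 fold change in IGF2BP3 KD cells (y axis), for the 32 genes (blue called lower, red called higher, dark grey not called) and 83 other UPR and ER folding genes (pale rings). XBP1, at 102 RPKM, lies below 0 and CALR, at 151 RPKM, above, while the largest rises are in pale rings of middle level.

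A further 83 genes of the UPR and of ER folding were examined, among them signal peptidase, translocon partners, oligosaccharyltransferase, retrieval receptors and membrane-bound factors. All 83 were tested, 10 fell, 28 rose and 45 were not called. The share that rose was 33.7%, against 9.87% of all tested genes and 16.6% of well expressed coding genes. The share that fell was 12.0%, against 10.6% and 19.7%. Their median log2 fold change was 0.08, with 55 values above 0 and 28 below, against medians of 0.01 over all tested genes and -0.013 over well expressed coding genes. The list was chosen with earlier results of these data known and was not tested as a set, so its shares are a description only.

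**Figure D4:**
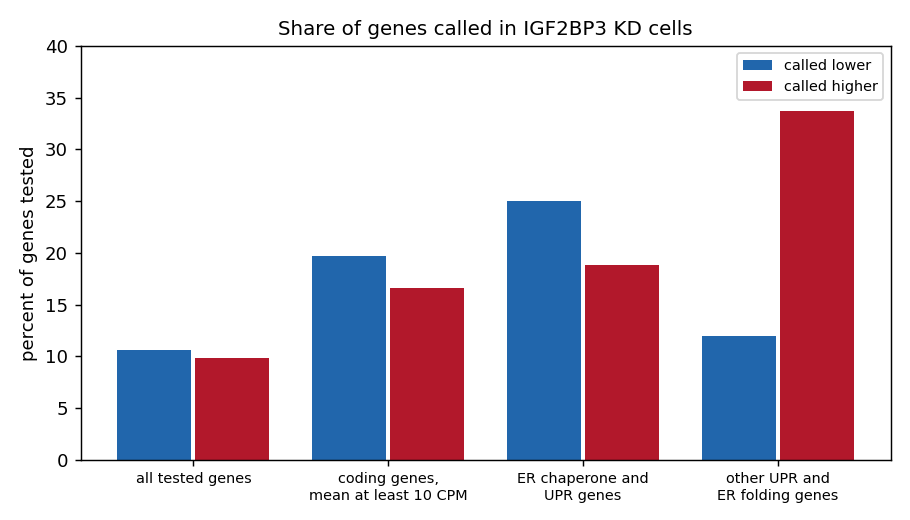
Percent of genes tested called in each direction after IGF2BP3 KD (y axis), for all tested genes, coding genes averaging 10 CPM or more, the 32 genes and the 83 other genes (x axis). The 32 genes stand at 25.0% lower and 18.8% higher, and the 83 other genes at 12.0% and 33.7%.

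The 5 largest rises among these 83 were all larger in size than any of the 32 genes' changes. *CREB3L1* (OASIS), a membrane-bound factor of the ATF6 type, had 59.98, 63.6 and 64.6 CPM in control and 147, 154 and 145 CPM in IGF2BP3 KD replicates (log2 fold change 1.25, standard error 0.04, edgeR adjusted p = 1.1e-08). *SERP1* (RAMP4), a small protein of the translocon, had 97.8, 95.7 and 87.6 CPM in control and 199.3, 199.4 and 195 CPM in IGF2BP3 KD replicates (log2 fold change 1.08, standard error 0.04, edgeR adjusted p = 4.7e-08). The control libraries of both genes lay far below every IGF2BP3 KD library. *SEC24D*, which selects cargo for COPII vesicles, and *KDELR3*, a receptor that returns chaperones from the Golgi, each had a log2 fold change of 0.80, and *CREB3L2*, a relative of *CREB3L1*, one of 0.55. *EIF2AK3*, which encodes the sensor PERK and was named after its value was seen, rose by 0.43 on the log2 scale (standard error 0.06, edgeR adjusted p = 3.9e-04).

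Among the 83 genes, those that fell included *MBTPS2*, *TMX3*, *SPCS3* and *UFD1*. *MBTPS2* encodes the site-2 protease, which releases ATF6 and the CREB3 factors from the membrane. It had 25.8, 24.3 and 24.0 CPM in control and 15.9, 14.8 and 16.9 CPM in IGF2BP3 KD replicates (log2 fold change -0.64, standard error 0.07, edgeR adjusted p = 1.0e-04). All IGF2BP3 KD libraries were lower, although 13.4% of its exonic bases are shared with *YY2* and another gene on its strand. *TMX3*, a membrane-bound disulfide isomerase, stood at -0.51, *SPCS3*, a subunit of signal peptidase, at -0.35 and *UFD1*, a cofactor of the extraction motor VCP, at -0.22. The 5 rises and these 4 falls were called under each of the 12 alternatives.

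In the ATF4 branch, which integrates PERK with other stress kinases, 4 of 5 genes fell and 0 rose. Of all tested genes 10.6% were called lower, and of well expressed coding genes 19.7%. The 5 genes were listed with earlier results of these data known and were not tested as a set. *ATF4* had 437, 444 and 429.7 CPM in control and 377, 384 and 387 CPM in IGF2BP3 KD replicates (log2 fold change -0.19, standard error 0.03, edgeR adjusted p = 2.8e-04). Its target *CHAC1*, which degrades glutathione, fell most, with a log2 fold change of -1.09, followed by *ASNS* at -0.32 and *TRIB3* at -0.25. *DDIT3*, the stress factor CHOP, was not called at -0.17 (edgeR adjusted p = 0.32). Another gene on the same strand shares 49.3% of the exonic bases of *ASNS*, and other genes share 39.6% of those of *DDIT3*. The counts of *ASNS* and *DDIT3* are uncertain to that extent. *PPP1R15A*, which fell too, is a known target of the ATF4 branch, but a link between these falls was not tested.

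Words of 7 bases in 3′ UTRs were counted in the canonical GENCODE v44 transcripts. GATTACT and ACACATC were chosen because genes holding them had been seen to be lower and higher in these libraries, so they give no independent support. Of the 32 genes, 2 hold GATTACT (*HSPA5* and *ERO1B*) and neither was called, and 2 hold ACACATC, of which *SEL1L* rose and *DNAJC3* was not called at 0.07. These shares, 6.25% each, compare with 7.69% and 9.53% of the 13939 tested genes with a 3′ UTR. The genes called lower among the 32, including *XBP1*, *DNAJB9* and *HYOU1*, hold neither word. Of all tested genes with ACACATC, 373 of 1328 were called higher and 142 lower, and of those with GATTACT, 72 of 1072 were called higher and 376 lower. Among the 83 other genes, 8 hold ACACATC (9.64%), of which 5 rose (*CREB3L1*, *SERP1*, *CREB3L2*, *SPCS2* and *SSR1*) and 1 fell, and 6 hold GATTACT (7.23%), of which 3 fell, *TMX3* and *SPCS3* among them, and 0 rose. *TMX3* holds both words. Sites of *SEL1L* and *HSPA5* and of a few of the other genes described above are shown as examples, with the word in capitals.
SEL1L: gcacaaagaACACATCaccttcctg
CREB3L1: cccaaacagACACATCaacgcaccc
SERP1: gggtactagACACATCagcctaaag
HSPA5: ctggtttagGATTACTtagattgtg
SPCS3: gatatgtttGATTACTggaaaatta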

How the data were processed

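The authors trimmed paired reads (fastp, per the labels), aligned them to hg38 with HISAT2, counted them per gene with featureCounts and deposited raw counts, one column per library. Tool versions, annotation release and strand setting are not given in the sources used here, so counts of overlapping genes are uncertain, although the library kit keeps strand. Where an identifier was listed again (44 identifiers, 132 further entries), its first entry was used. The test was that of edgeR 4.0.16 (R 4.3.3), with TMM factors, filterByExpr (minimum count 10, minimum total 15), glmQLFit and glmQLFTest on the group alone, and Benjamini-Hochberg adjustment over 19778 genes, with calls at 0.05. Standard errors are the absolute log2 fold change over the root of F. The procedure was tested on simulated data. Libraries of a group differed by more than counting noise (chi-square per degree of freedom 9.86 to 17.6, between groups 46.3 to 58.2), so each was used as a library of its own. GENCODE v44 (hg38) gave positions, exon lengths and overlaps, and promoters from RefSeq on GRCh38.p14. The members and lists were chosen with earlier results of these data known. All 32 members are accounted for by role, called members are described in full, and from the other 83 genes the 5 largest called changes in each direction are named, with all 5 genes of the ATF4 branch, except 1 item that is not reported here. Alternatives were DESeq2 1.42.0, RLE scaling, other filters, coding genes alone, the replicate number as a block, and each library left out.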

Additional observations from a re-analysis of the deposited data

How the results depend on the processing

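The counts of called genes stayed within 1.5 times their main values under all alternatives tried, except the count of members called higher, which was 3 instead of 6 with no filter on low counts and 3 to 5 when each library was left out in turn. That filter setting tested more genes. Members called lower numbered 6 to 9 over all alternatives. The median log2 fold change of the members lay between -0.019 and 0.019 when each library was left out, on both sides of 0, and was 5.70e-05 with coding genes alone. Of 384 comparisons of a member with its main value, 336 kept direction and side of the threshold, 23 lost the call, 4 gained it and 21 changed sign, all of the last in members that were not called. *SYVN1* was -0.0058 with DESeq2, -0.0035 with RLE scaling, -0.0083 with no filter, -0.0037 with at least 10 counts in every library and -0.0013 with the replicate block, and -0.033 to 0.048 with a library left out. *HSP90B1* was -0.00014 with DESeq2, -0.0023 with no filter and -0.012 to 0.033 with a library left out. In the same fits *TXNDC5* lay between -0.034 and 0.0092, *DERL2* between -0.068 and 0.014, *CRELD2* between -0.046 and 0.017, *ERO1B* between -0.24 and 0.058 and *ERP44* between -0.027 and 0.0051. The cause was not tested. Deviations of same-numbered libraries correlated at 0.00899, -0.102 and 0.0302, and those of differently numbered libraries at -0.109 to 0.0816. These values show no pairing by replicate number, but whether libraries were prepared in pairs was not tested. With the replicate block 8 members were lower and 5 higher, against 8 and 6 without it, and *ERN1* was the member that lost its call (adjusted p = 0.054). At this depth changes of *ERO1B* and *DERL3* are poorly limited.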
